A study of Rattus norvegicus with 6 samples.

Results

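Heat shock proteins and their J-domain co-chaperones keep other proteins folded, and a set of 38 genes of this network was followed in cultures labelled as spinal cord neurons in which galectin-3 (GAL3) had been knocked down. The set is a list of gene symbols, drawn up by family with earlier results of these data known, although its rule uses no measured value, and it covers the small heat shock proteins, the HSP70, HSP90 and HSP40 (J-domain) families, the mitochondrial chaperonin, 7 co-chaperones and the transcription factor HSF1. Of the 38 genes, 37 were listed among the 17648 genes of the expression matrix and BAG5 was not analysed here. A total of 35 reached a mean of 1 across all libraries and could be tested, and HSPA1A and HSPA1B lay below that limit.

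The cultures came from neonatal Sprague-Dawley rats and were sequenced as 3 libraries transfected with a control small interfering RNA (Glu + siR-Con) and 3 transfected with one against GAL3 (Glu + siR-GAL3). According to the methods, all cultures were grown for 3 days, exposed to 10 μM glutamate for 1 h and kept for another 16 h without it, while the sample labels name saline for the control libraries and call the others a GAL3 knockout. The arms are named here as in the methods, and if the labels were right, glutamate and GAL3 could not be told apart. No library without transfection and no second siRNA was analysed here. Although the methods describe the study's data in general as coming from independent repeats, nothing ties the 3 libraries of an arm to separate cultures. The p-values therefore rest on the spread between the deposited library values, which may be technical. That spread is what was left after the authors corrected for differences within groups, so p-values, standard errors and intervals may be too small.

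Values are on a linear scale that the authors derived from FPKM, reads per kilobase of transcript and per fixed number of reads, and then corrected for batch and for differences within groups. FPKM are per length, but whether levels of different genes stayed comparable after these corrections was not tested. Comparisons of level between genes therefore hold for the values as deposited. Sequencing depth is not known. Library values are always given in the order of replicates 1, 2 and 3. Exactly equal values divided the libraries into 3 sets, where replicate 1 of both arms formed the first, replicate 3 of both arms joined siR-Con replicate 2 in the second, and siR-GAL3 replicate 2 stood alone. That library held the highest or the lowest of the 6 values for 76.7% of the 8495 genes tested. The targeted gene, LGALS3, was 77.4, 54.4 and 62.4 under siR-Con and -1.64, 32.3 and 18.5 under siR-GAL3. It was lower in all 3 siR-GAL3 libraries, by unequal amounts, with a log2 fold change of -2.91 (standard error 1.20, unadjusted p = 0.0462, adjusted p = 0.571 in limma). The value below 0 was raised to 0 for the fit, and the log2 fold change was -1.35 without siR-GAL3 replicate 1 and -3.88 without siR-GAL3 replicate 2. The difference within the second library set was -1.60.

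The labelled cell type was checked against markers. Of 18 neuronal markers listed, 11 had a mean under 1, among them RBFOX3, which encodes the neuronal nuclear antigen NeuN. CHAT, ISL1, SLC17A6 and NEFH were below 0.1 in every library. Other neuronal markers were well above 1, with means over the 6 libraries of 16.9 for MAP2, 9.10 for ELAVL3, 8.37 for GAP43 and 4.63 for TUBB3. The 10 astrocyte markers summed to between 937 and 1077 in siR-Con and between 811 and 875 in siR-GAL3, the 10 oligodendrocyte lineage markers to between 1055 and 1126 and between 1063 and 1385, the 14 microglial markers to between 125 and 149 and between 157 and 178, and the 6 fibroblast and vessel markers listed to between 43.1 and 50.7 and between 33.1 and 38.1. The 18 neuronal markers together gave only 43.0 to 49.2 over all 6 libraries. The summed level of glial markers thus far exceeded that of neuronal markers. Single genes weigh heavily in these sums, since the astrocyte marker GFAP had a mean of 590 and the oligodendrocyte marker MBP of 713. The sums therefore do not give shares of cells, and in bulk samples fewer cells of a type and less RNA per cell cannot be told apart.

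As background, HSP70 proteins bind short hydrophobic stretches of unfolded proteins in a cycle driven by ATP. J-domain proteins bring them the client and start ATP hydrolysis, and nucleotide exchange factors such as the HSP110 and BAG proteins release it again. HSP90 receives a subset of these clients, small heat shock proteins hold unfolding proteins without ATP, and the chaperonin HSPD1 with its lid HSPE1 folds proteins inside mitochondria. HSF1 switches on the inducible genes of the network by binding heat shock elements. The network also touches autophagy, since HSPA8 selects proteins for chaperone-mediated autophagy and BAG3 with HSPB8, HSPA8 and the ubiquitin ligase STUB1 hands damaged proteins to the autophagosome.

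Sequence around the starts of these genes was read first, since many of them are known targets of HSF1. RefSeq windows of 300 bases (assembly GRCr8, 250 before and 50 after the start of the gene) matched 29 of the 38 genes by symbol, and CRYAB, HSPA1B, HSPA12A, HSP90AA1, DNAJA2, DNAJB4, DNAJC8, ST13 and HSF1 had no entry. A heat shock element is a run of inverted GAA units, and 2 versions were searched on both strands, one of 3 units (GAANNTTCNNGAA or TTCNNGAANNTTC) and one of 2 units (GAANNTTC or TTCNNGAA), where every 3-unit match also holds 2-unit matches. The 3-unit version was found in 5 of the 29 windows, or 17.2%, and in 0.798% of the 33469 windows of the genome. The 2-unit version was found in 14 of the 29, or 48.3%, and in 15.9% of all windows. The 5 genes with 3 units were HSPA8, HSPH1, HSPD1, HSPE1 and DNAJA1. HSPD1 and HSPE1 lie head to head with 290 bases between their starts, and their windows share 211 bases, so that the same element was counted for both. The 250 bases before the start are shown 5′ to 3′ on the strand of the gene, with matches of either version in capitals. DNAJB2, HSP90AB1, DNAJA3, DNAJA4 and HSPA14 had arms that did not overlap, and their windows, not shown, hold no match of either version. HSPB1, HSPB8, BAG3 and HSPD1 are shown because the values described next turn on them, and HSPH1, DNAJB1 and HSPA1A as heat-inducible genes whose arms overlapped or that were too low to test.
HSPB1 (chr12:26432302-26432551, minus strand): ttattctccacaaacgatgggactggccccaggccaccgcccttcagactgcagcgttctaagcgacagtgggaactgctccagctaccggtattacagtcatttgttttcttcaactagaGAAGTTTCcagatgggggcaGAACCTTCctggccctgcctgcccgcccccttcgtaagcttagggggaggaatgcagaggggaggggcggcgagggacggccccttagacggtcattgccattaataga
HSPB8 (chr12:45837058-45837307, plus strand): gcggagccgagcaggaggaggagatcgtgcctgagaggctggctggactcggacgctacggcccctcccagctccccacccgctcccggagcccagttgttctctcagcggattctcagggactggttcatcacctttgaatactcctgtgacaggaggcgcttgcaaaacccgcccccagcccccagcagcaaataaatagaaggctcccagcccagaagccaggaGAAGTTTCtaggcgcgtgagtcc
BAG3 (chr1:192533210-192533459, plus strand): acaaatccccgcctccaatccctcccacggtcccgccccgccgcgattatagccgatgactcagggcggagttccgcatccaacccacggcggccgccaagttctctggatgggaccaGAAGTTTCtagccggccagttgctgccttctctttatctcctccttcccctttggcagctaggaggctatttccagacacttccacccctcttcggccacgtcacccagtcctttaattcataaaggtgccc
HSPD1 (chr9:64084038-64084287, minus strand): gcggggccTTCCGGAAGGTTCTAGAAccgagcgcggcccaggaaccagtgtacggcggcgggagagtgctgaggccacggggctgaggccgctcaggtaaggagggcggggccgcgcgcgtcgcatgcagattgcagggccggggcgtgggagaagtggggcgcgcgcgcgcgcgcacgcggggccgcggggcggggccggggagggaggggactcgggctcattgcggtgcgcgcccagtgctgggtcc
HSPH1 (chr12:10427118-10427367, plus strand): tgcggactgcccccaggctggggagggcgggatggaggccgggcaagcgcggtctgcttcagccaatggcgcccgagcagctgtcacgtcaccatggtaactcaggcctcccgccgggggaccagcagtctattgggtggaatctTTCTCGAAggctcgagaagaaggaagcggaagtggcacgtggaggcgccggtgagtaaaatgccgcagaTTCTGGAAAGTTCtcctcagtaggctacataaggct
DNAJB1 (chr19:41431142-41431391, minus strand): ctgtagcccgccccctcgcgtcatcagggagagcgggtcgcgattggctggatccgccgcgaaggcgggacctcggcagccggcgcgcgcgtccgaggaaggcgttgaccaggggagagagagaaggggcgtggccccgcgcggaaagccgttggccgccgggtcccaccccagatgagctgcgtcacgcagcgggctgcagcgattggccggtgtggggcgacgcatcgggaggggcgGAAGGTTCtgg
HSPA1A (chr20:3859506-3859755, plus strand): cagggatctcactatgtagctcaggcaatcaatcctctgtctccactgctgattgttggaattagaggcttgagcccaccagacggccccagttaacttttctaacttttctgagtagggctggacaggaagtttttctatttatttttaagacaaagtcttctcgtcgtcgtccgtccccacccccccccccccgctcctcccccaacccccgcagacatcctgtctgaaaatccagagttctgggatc

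The same 8 letters, GAAGTTTC, are the match in HSPB8, in BAG3 and, as the first of 2, in HSPB1. On either strand they were found in 5 of the 29 windows, also those of HSPB6 and HSPA9, and in 1.39% of all windows. The letters were read off the HSPB8 window, so that window matches by construction and the shares are no test. The stretch before HSPA1A holds no match of either version, and that before HSPH1 holds both. The search used a single window per gene and exact units, so an element with an altered unit or outside the window would be missed. The HSPD1 line begins with a run of overlapping units that stands near the start of HSPE1, at 65 and 60 bases before it. A match is a description of the letters only, and binding of HSF1 was not measured in these libraries.

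**Figure D1:**
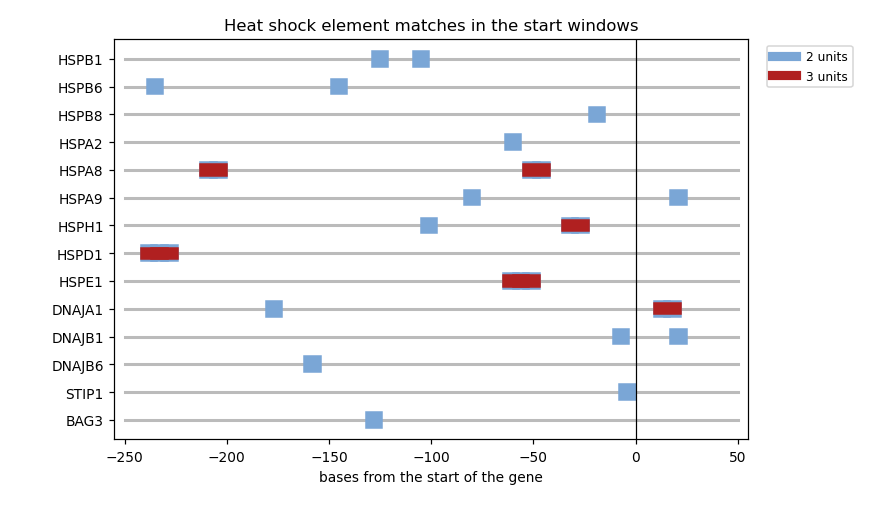
Positions of heat shock element matches in the 14 of 29 gene-start windows that hold one, in bases from the start of the gene (x axis), one grey line per window from 250 bases before to 50 after. Blue bars mark 2-unit and red bars 3-unit matches, and the red bars stand in HSPA8, HSPH1, HSPD1, HSPE1 and DNAJA1.

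Silencing of GAL3 was compared with control transfection gene by gene. Of the 35 chaperone genes, 20 had a log2 fold change above 0 and 15 below 0 in Glu + siR-GAL3, and 29 were within 0.2 of 0. Of all 8495 genes tested, 4247 were above 0 and 6861 were within 0.2 of 0, so small changes were common throughout. The median of the 35 was 0.02 (quartiles -0.08 and 0.08), and over all genes tested the quartiles were -0.10 and 0.10. In limma, no adjusted p (Benjamini-Hochberg) of a chaperone gene was under 0.05, nor was that of any of the 8495 genes (0%). At an unadjusted p under 0.05 there were 5 of the 35, or 14.3%, against 8.66% of all genes. The 4 lower ones were HSPB8, HSPA12A, HSPD1 and BAG3, or 11.4% against 4.25% of all genes, and the higher one was DNAJB2, or 2.86% against 4.41%. The arms did not overlap for 10 of the 35, or 28.6%, against 20.5% of all genes, and 6 of these were lower and 4 higher in siR-GAL3. No gene of the set reached a log2 fold change of 1 in size, which 0.353% of all genes did.

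siR-GAL3 replicate 2 held the highest value of the 6 libraries for 16 of the 35 genes and the lowest for 6, against 41.5% and 35.1% of all genes. Fewer than 6 distinct values were listed for 3 of the 35 (HSPA8, HSP90AB1 and DNAJB5), against 1.27% of all genes. The median of the 35 was -0.02 without this library. When it was left out, 6 chaperone genes had an unadjusted p under 0.05 in limma, or 17.1% against 16.3% of all genes, and 2 had an adjusted p under 0.05, HSPB1 and HSPB8, or 5.71% against 1.97%. A fit that blocked on the library set gave 6 against 13.8% at the unadjusted and 1, HSPB1, or 2.86% against 1.25% at the adjusted p. The block gives no weight to the library that is alone in its set, so in both fits the contrast rests on the same 5 libraries.

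**Figure D2:**
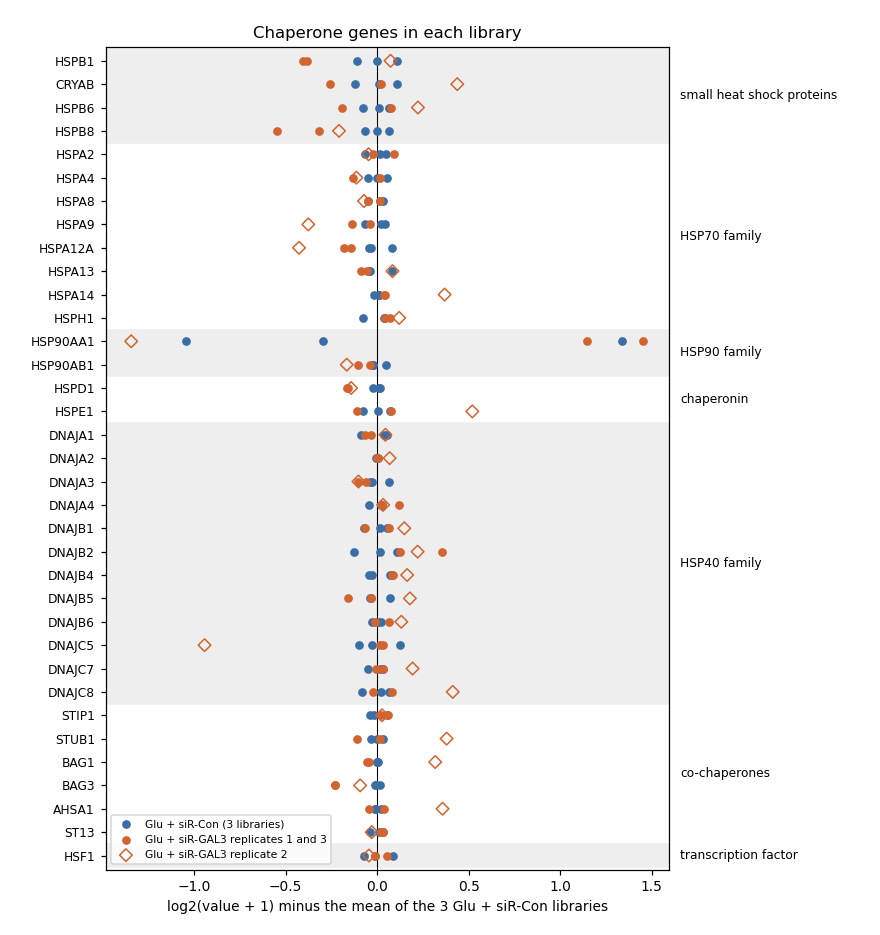
Each of the 35 tested chaperone genes in each library, as log2(value + 1) minus the mean of the 3 Glu + siR-Con libraries (x axis), grouped by family. Filled points of both arms mix around 0 for most genes, HSPB8 and HSPD1 have all 3 siR-GAL3 points below the siR-Con points, and the open diamonds of siR-GAL3 replicate 2 stand apart to the right in CRYAB, HSPE1 and DNAJC8 and to the left in DNAJC5.

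Among the small heat shock proteins, HSPB8 was lower in all 3 siR-GAL3 libraries and HSPB1 in 2 of them, and CRYAB and HSPB6 overlapped widely. HSPB8, which holds misfolded proteins for BAG3, was 5.39, 5.69 and 5.996 under siR-Con and 4.37, 4.79 and 3.58 under siR-GAL3. Every siR-GAL3 value lay below every siR-Con value. The mean was 5.69 ± 0.303 (SD, n = 3) against 4.25 ± 0.615 (SD, n = 3). On the scale log2(value + 1), the log2 fold change of -0.36 (standard error 0.10, 95% interval -0.59 to -0.12) was the most negative of the 35. That rank depends on the scale, since with 0.1 added in place of 1 HSPA12A was at -0.45 and HSPB8 at -0.42. On the main scale, the unadjusted p of HSPB8 in limma was 0.00904 and its adjusted p 0.364, and the adjusted p was 0.0375 without siR-GAL3 replicate 2. The difference was -0.25 within the first library set and -0.58 within the second, and the unadjusted p stayed under 0.05 with each of the 6 libraries left out in turn.

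BAG3, the nucleotide exchange factor that binds HSPB8 and HSPA8, also had no overlap between the arms. It was 3.91, 3.98 and 3.89 under siR-Con and 3.19, 3.62 and 3.20 under siR-GAL3. The siR-Con libraries were nearly equal, and siR-GAL3 replicate 2 stood between the other siR-GAL3 libraries and the controls. Its log2 fold change was -0.19 (standard error 0.07, unadjusted p = 0.0294, adjusted p = 0.529 in limma), and the difference was -0.23 within each of the library sets that held both arms. Without siR-GAL3 replicate 2 the adjusted p was 0.052, and with any one of the other 5 libraries left out the unadjusted p was above 0.05.

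HSPB1, known as HSP27 and the most abundant small heat shock protein here, was lower in 2 of the 3 siR-GAL3 libraries. It was 27.99, 23.8 and 25.9 under siR-Con and 19.6, 27.3 and 19.2 under siR-GAL3. siR-GAL3 replicates 1 and 3 lay below every control, while replicate 2 lay among the controls, so the arms overlapped. Over all 6 libraries the log2 fold change was -0.24 (standard error 0.14, unadjusted p = 0.135, adjusted p = 0.590 in limma). Without siR-GAL3 replicate 2 it was -0.39 (standard error 0.07, adjusted p = 0.0375), and -0.41 when the library set was blocked (adjusted p = 0.0446). The call for HSPB1 thus depends on that 1 library.

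CRYAB and HSPB6, the other small heat shock proteins, did not separate the arms. CRYAB, known as αB-crystallin, was 3.49, 3.21 and 2.84 under siR-Con and 2.49, 4.65 and 3.23 under siR-GAL3, so that siR-GAL3 held both its lowest and its highest value. HSPB6 ranged from 8.53 to 9.49 in siR-Con and from 7.77 to 10.7 in siR-GAL3. Their log2 fold changes were 0.07 (95% interval -0.34 to 0.47) and 0.04 (95% interval -0.23 to 0.31), and both turned negative without siR-GAL3 replicate 2, at -0.12 and -0.06. Whether HSPB8 and CRYAB differ in their response was not tested.

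Some marker genes of other cell types differed between the arms in the same libraries. The summed astrocyte and the summed fibroblast and vessel markers were lower, without overlap, in siR-GAL3, and the summed microglial markers were higher. At an unadjusted p under 0.05 in limma, 4.25% of all genes were lower and 4.41% higher. Of the markers tested, 4 of 10 astrocyte and 3 of 5 fibroblast and vessel genes were lower, and 6 of 13 microglial ones higher. Among neuronal markers 1 of 7 was higher, and of the oligodendrocyte lineage, whose sums overlapped, 0 of 9 passed. Over all 6 libraries, no marker of any list had an adjusted p under 0.05 in limma. Without siR-GAL3 replicate 2, the microglial markers CD68, AIF1, PTPRC and ITGAM did, at 0.0069, 0.017, 0.018 and 0.042. With the library set blocked, CD68, AIF1 and PTPRC did, at 0.014, 0.020 and 0.024. All were higher in siR-GAL3, and no other marker tested passed in these fits. Of all genes, 1.97% and 1.25% passed. GFAP, the astrocyte filament protein, was 758, 637 and 571 under siR-Con and 523, 533 and 515 under siR-GAL3. It made up most of the astrocyte sum. AQP4, the next largest astrocyte marker, overlapped, at 110, 130 and 134 under siR-Con and 129, 95.6 and 98.3 under siR-GAL3. Of the 10 astrocyte markers 2, SLC1A3 and GJA1, had log2 fold changes above 0, of 0.06 and 0.02. The part of these cell types in the values of HSPB1, HSPB8 and BAG3 was not tested.

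**Figure D3:**
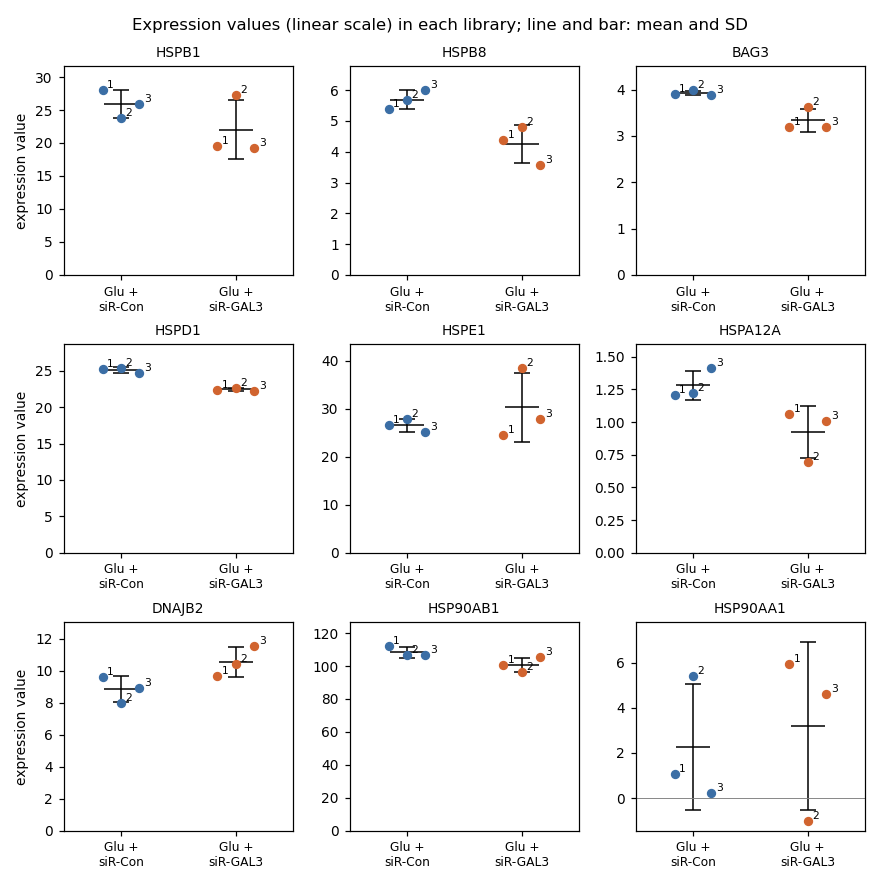
Expression values (y axes, linear scale from 0, extended below 0 for HSP90AA1) of 9 chaperone genes in each library, numbered by replicate, with the mean and SD of each arm. HSPB8, BAG3, HSPD1, HSPA12A and HSP90AB1 have every siR-GAL3 library below every siR-Con library, DNAJB2 has every one above, and HSPB1, HSPE1 and HSP90AA1 overlap.

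The HSP70 family was dominated by HSPA8, the constitutive cytosolic HSP70 (also HSC70). Its level of 98.8 ± 3.09 (SD, n = 3) in siR-Con and 96.4 ± 3.11 (SD, n = 3) in siR-GAL3 was higher than that of 99.8% of all genes listed. It was 99.9, 101 and 95.3 under siR-Con and 99.9, 93.9 and 95.3 under siR-GAL3, and the equal values of replicates 1 and of replicates 3 were exactly equal as deposited. The log2 fold change was -0.04, with a 95% interval of -0.19 to 0.12, so that larger changes of HSPA8 lay outside the interval.

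HSPA1A and HSPA1B, the stress-inducible HSP70 genes, were near 0. Both were listed at the same value in each library, 0.0341, 0.0306 and 0.0195 under siR-Con and 0.0173, 0.0216 and 0.0344 under siR-GAL3. The genes are near-identical copies, and how reads were divided between them was not stated, so their level is uncertain. Neither was tested, and no fold is given.

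HSPA12A, a distant member of the family, was low and had no overlap between the arms. It was 1.21, 1.22 and 1.41 under siR-Con and 1.06, 0.695 and 1.01 under siR-GAL3, with the lowest value in replicate 2. The log2 fold change was -0.25 (standard error 0.09, unadjusted p = 0.0269, adjusted p = 0.522 in limma) and -0.16 without siR-GAL3 replicate 2. The scale, log2(value + 1), understates the change of so low a gene.

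HSPA9, the mitochondrial HSP70 mortalin, was 12.03, 11.8 and 11.1 under siR-Con and 11.3, 8.74 and 10.5 under siR-GAL3. The arms overlapped by 1 library, and the log2 fold change of -0.18 became -0.09 without replicate 2. HSPA14, a ribosome-associated HSP70, was 1.98, 2.04 and 2.03 under siR-Con and 2.10, 2.90 and 2.11 under siR-GAL3. It did not overlap, but its log2 fold change of 0.15 (unadjusted p = 0.180 in limma) was 0.04 without replicate 2. The remaining genes tested, HSPA2, HSPA4, HSPA13 and HSPH1, had log2 fold changes between -0.08 and 0.08 and overlapping arms.

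HSPH1 and HSPA4 belong to the HSP110 exchange factors, and a related gene from the list of other chaperones described at the end, HSPA4L, was lower. HSPA4L was 5.76, 5.85 and 6.05 under siR-Con and 5.12, 4.49 and 4.74 under siR-GAL3. Its arms did not overlap and its log2 fold change was -0.25 (standard error 0.07, unadjusted p = 0.00792, adjusted p = 0.356 in limma), with an unadjusted p under 0.05 in each of the 6 fits that left out a library. HSPA4 had a log2 fold change of -0.08 and HSPH1 of 0.08. Differences between the 3 genes were not tested.

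In the HSP40 family, whose J-domain starts the ATP hydrolysis of HSP70, 8 of 12 genes had log2 fold changes above 0 and 8 were within 0.1 of 0. Of all 8495 genes tested, 4247 were above 0 and 4263 within 0.1 of 0. DNAJB2, a J-domain protein known for its abundance in neurons, was 9.59, 7.98 and 8.93 under siR-Con and 9.69, 10.4 and 11.5 under siR-GAL3. Every siR-GAL3 value was above every control, although replicate 1 of siR-GAL3 was close to replicate 1 of siR-Con. The log2 fold change was 0.23 (standard error 0.09, unadjusted p = 0.0416, adjusted p = 0.558 in limma), with a difference of 0.01 within the first library set and of 0.41 within the second.

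Of the other J-domain genes, DNAJB4 and DNAJA4 were higher and DNAJA3 lower without overlap. DNAJB4, a partner of inducible HSP70, was 2.71, 2.65 and 2.97 under siR-Con and 3.01, 3.23 and 2.99 under siR-GAL3. DNAJA4 was 3.85, 4.08 and 4.10 in siR-Con and 4.43, 4.12 and 4.10 in siR-GAL3, where replicate 3 of both arms differed only beyond the digits given. DNAJA3, the mitochondrial J-domain protein that works with HSPA9, was 5.20, 4.77 and 4.82 under siR-Con and 4.67, 4.52 and 4.51 under siR-GAL3. Their log2 fold changes were 0.11, 0.06 and -0.09, and their unadjusted p-values in limma were 0.140, 0.390 and 0.198.

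DNAJC5, the cysteine string protein of synaptic vesicles, showed how 1 library could set a mean. It was 9.81, 10.3 and 11.6 under siR-Con and 10.7, 5.01 and 10.8 under siR-GAL3. It differed by -0.30 (standard error 0.26) on the log2 scale over all libraries and 0.02 (standard error 0.07) without siR-GAL3 replicate 2, which was the only low one. DNAJC8, a J-domain protein linked to splicing, went the other way, with 6.75 to 7.56 in siR-Con and 7.66, 9.92 and 7.08 under siR-GAL3.

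DNAJA1, the most abundant J-domain gene, was 21.0, 23.3 and 23.0 under siR-Con and 21.9, 23.1 and 21.4 under siR-GAL3. The arms overlapped, with a log2 fold change of -0.02 (95% interval -0.19 to 0.15). DNAJB1, the classical heat-inducible HSP40, was low, at 2.63 ± 0.163 (SD, n = 3) in siR-Con and 2.77 ± 0.278 (SD, n = 3) in siR-GAL3, and its log2 fold change was 0.05. DNAJA2, DNAJB5, DNAJB6 and DNAJC7 had log2 fold changes of 0.02, -0.0039, 0.06 and 0.07 and overlapping arms.

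HSP90AB1, the constitutive HSP90, was the most abundant gene of the whole set. It was 112, 106 and 106 under siR-Con, the last 2 exactly equal as deposited, and 101, 96.4 and 105 under siR-GAL3. No siR-GAL3 library reached a control, but replicate 3 came within about 1 unit of replicates 2 and 3 of siR-Con. The mean was 108 ± 3.20 (SD, n = 3) against 101 ± 4.42 (SD, n = 3), a log2 fold change of -0.10 (95% interval -0.27 to 0.06, unadjusted p = 0.171 in limma). HSPA8 and HSP90AB1 together made up between 37.8% and 41.6% of the summed level of the 37 genes in each library.

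HSP90AA1, the inducible HSP90, varied widely between libraries for its low level. It was 1.07, 5.42 and 0.232 under siR-Con and 5.96, -1.03 and 4.62 under siR-GAL3. Both arms held high and low libraries, and the value below 0, the only one in the set, was raised to 0 for the fit. The log2 fold change was 0.42 (standard error 0.86, 95% interval -1.62 to 2.46), which leaves its direction undetermined. It was 1.30 without siR-GAL3 replicate 2 (adjusted p = 0.315) and -0.10 without siR-Con replicate 3 or without siR-GAL3 replicate 1.

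The co-chaperones of HSP70 and HSP90 other than BAG3 had overlapping arms. STIP1, which passes clients from HSP70 to HSP90, was 14.9 ± 0.537 (SD, n = 3) in siR-Con and 15.3 ± 0.223 (SD, n = 3) in siR-GAL3, while ST13, an HSP70-binding protein and the most abundant of them, was 18.3, 19.3 and 18.97 under siR-Con and 19.3, 18.4 and 19.1 under siR-GAL3. The 95% intervals of their log2 fold changes ran from -0.11 to 0.18 and from -0.14 to 0.16. STUB1, the ubiquitin ligase that works with BAG3, was 4.97, 5.10 and 4.83 under siR-Con and 4.53, 6.76 and 5.02 under siR-GAL3. BAG1, the exchange factor linked to the proteasome, was 4.98 ± 0.0199 (SD, n = 3) in siR-Con and 4.80, 6.45 and 4.75 under siR-GAL3, and AHSA1, the activator of HSP90 ATP hydrolysis, was 6.39 ± 0.0832 (SD, n = 3) and 6.58, 8.47 and 6.17. For STUB1, BAG1 and AHSA1, the high value was that of siR-GAL3 replicate 2, and without it the log2 fold changes of 0.09, 0.07 and 0.12 became -0.05, -0.05 and -0.0033.

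The chaperonin pair HSPD1 and HSPE1, whose shared start region is printed in the HSPD1 line, did not share one pattern over the libraries, HSPD1 being without overlap and HSPE1 with it. HSPD1, the HSP60 ring protein, was 25.3, 25.3 and 24.7 under siR-Con and 22.4, 22.6 and 22.3 under siR-GAL3. Both arms were tight and did not overlap, siR-GAL3 replicate 2 included. The log2 fold change was -0.16 (standard error 0.06, unadjusted p = 0.0358, adjusted p = 0.536 in limma), and it lay between -0.17 and -0.15 with each library left out in turn, although only the fit without siR-GAL3 replicate 2 then had an unadjusted p under 0.05. Within the library sets the difference was -0.17 and -0.16.

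HSPE1, the HSP10 lid, was 26.6, 27.8 and 25.1 under siR-Con and 24.5, 38.4 and 27.9 under siR-GAL3. The arms overlapped and replicate 2 of siR-GAL3 was far above all others, with a log2 fold change of 0.16 over all libraries and -0.02 without it. The log2 ratio of HSPD1 to HSPE1 was -0.08 ± 0.06 (SD, n = 3) in siR-Con and -0.13, -0.76 and -0.33 under siR-GAL3. The difference of the mean ratios was -0.33, and -0.15 without siR-GAL3 replicate 2, an alternative chosen after seeing the data. The ratios overlapped, as siR-GAL3 replicate 1 lay above siR-Con replicate 2, at -0.130 against -0.134. Over all 6 libraries, an exact permutation test of the 20 groupings gave a two-sided p of 0.2. With 3 against 3 this test cannot go below 0.1.

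HSF1 itself did not separate the arms. It was 1.80, 1.92 and 2.13 under siR-Con and 2.06, 1.86 and 1.92 under siR-GAL3, and every siR-GAL3 value lay within the range of the controls. The 95% interval of its log2 fold change ran from -0.16 to 0.16. HSF1 acts through trimerization and phosphorylation of its protein, which RNA does not show. The genes with a 3-unit element in their window had log2 fold changes of -0.04 for HSPA8, 0.08 for HSPH1, -0.16 for HSPD1, 0.16 for HSPE1 and -0.02 for DNAJA1.

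**Figure D4:**
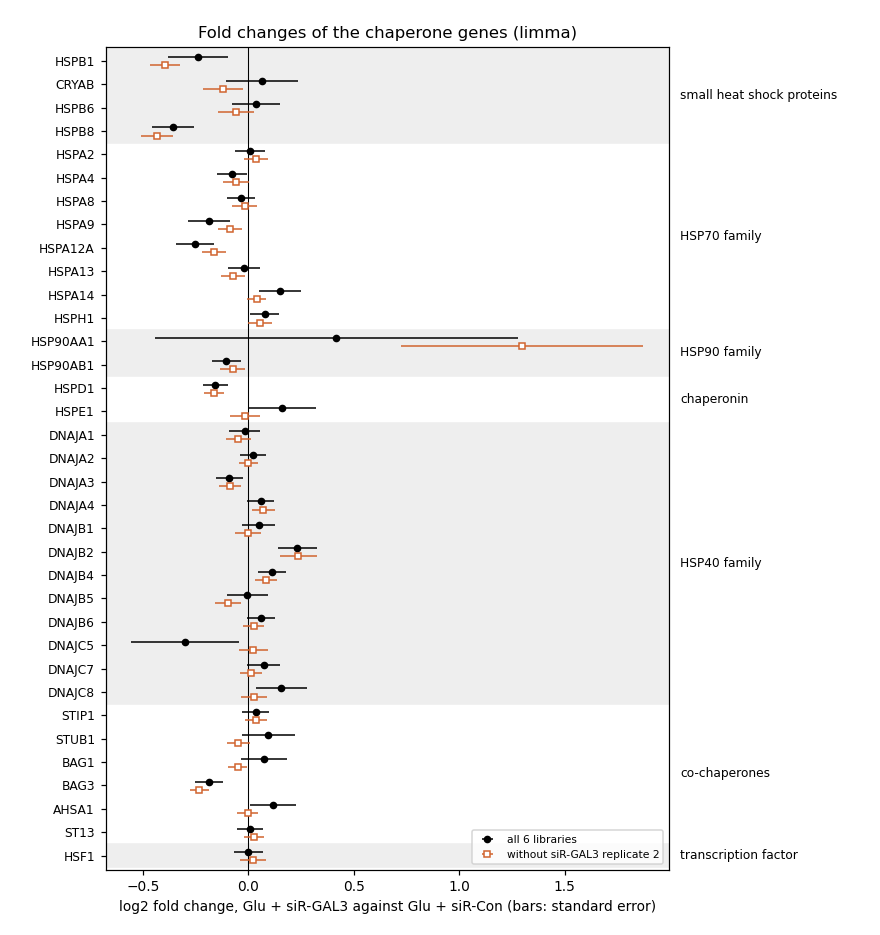
Log2 fold changes of the 35 chaperone genes, GAL3 silenced against control (x axis), with standard errors, over all 6 libraries (filled circles) and without siR-GAL3 replicate 2 (open squares), grouped by family. HSPB8, BAG3, HSPD1 and HSPA12A stay below 0 in both fits, HSPB1 moves from -0.24 to -0.39, DNAJC5 from -0.30 to 0.02, and HSP90AA1 has the widest bars.

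A second list held 72 other genes, mainly chaperones and co-chaperones of the cytosol, nucleus and mitochondria. Among them were the cytosolic chaperonin, prefoldin, HSP90 partners and further J-domain genes, and also HSF2, HSF4 and HSBP1, which are not chaperones. Of the 72 genes, 55 could be tested, 38 with a log2 fold change above 0 and 17 below 0. Their median was 0.08, which became 0.03 without siR-GAL3 replicate 2. None had an adjusted p under 0.05 in limma, and 4, or 7.27%, had an unadjusted p under 0.05, against 8.66% of all genes. The lower one was HSPA4L. The 3 higher ones were CHORDC1, an HSP90 co-chaperone, with 2.12 ± 0.107 against 2.54 ± 0.233 (SD, n = 3 each), DNAJC2, a ribosome-associated J-domain protein, with 4.18 ± 0.214 against 5.23 ± 0.817 (SD, n = 3 each), and DNAJC21, a J-domain protein of ribosome assembly, with 1.07 ± 0.041 against 1.44 ± 0.244 (SD, n = 3 each). On the log2 scale these differed by 0.18, 0.26 and 0.23, and by 0.13, 0.16 and 0.15 without siR-GAL3 replicate 2. Their unadjusted p stayed under 0.05 in 2, 2 and 3 of the 6 fits that left out a library.

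Summed over the 37 genes, the chaperone level averaged 505 ± 6.76 under siR-Con and 495 ± 8.29 under siR-GAL3 (SD, n = 3 for both), or between 0.757% and 0.791% of each library's total. The sums by library were 509, 509.9 and 498 under siR-Con and 488, 504 and 492 under siR-GAL3, so that the arms overlapped. The 95% interval of the log2 fold change lay inside -0.5 to 0.5 for 30 of the 35 genes and inside -0.25 to 0.25 for 15. The shares over all genes were not counted, so these counts are not read as particular to the chaperones.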

How the data were processed

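RNA of cultures labelled as spinal cord neurons was sequenced in 6 libraries, 3 for each arm. The authors aligned reads with STAR, counted them per gene with HTSeq, estimated FPKM, and followed this by batch removal, standardization and a correction for differences inside each group, with tools and genome build not given in the sources used here. The deposited expression values are on a linear scale and 4090 of them, in 2376 of 17648 rows, are below 0. The labels name ribosomal RNA depletion and the supplement polyadenylated RNA selection. Columns were mapped to samples by name. Negative values were raised to 0 and all values put on the scale log2(value + 1). The limma package (3.58.1, R 4.3.3) fitted the 8495 genes whose mean reached 1, using an intensity trend, and p-values were adjusted over all of them by the Benjamini-Hochberg method. Intervals are 95% intervals from limma. No counting error could be given, since sequencing depth is not known. The script was tested on simulated data. The set of genes, the lists and the alternatives were chosen with earlier results of these data known. Values per library are given for genes with an unadjusted p under 0.05, no overlap or a value below 0, for the most abundant of each family, and for the inducible and constitutive HSP70 and HSP90 genes, HSPD1, HSPE1 and HSF1, and of the other chaperones up to 5 with the smallest p are named. The values by library of GFAP, AQP4, HSPA4L, CRYAB, HSPA9, DNAJC5, DNAJC8, STUB1, BAG1 and AHSA1 were added after they were seen. Sequence windows are from RefSeq, assembly GRCr8. Alternatives were a pseudocount of 0.1, other filters, scalings and variance models, blocks, libraries left out, and untransformed values.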

Additional observations from a re-analysis of the deposited data

How the results depend on the processing

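The 5 chaperone genes with an unadjusted p under 0.05 became 1 with a mean of at least 10. That filter kept 12 of the 35 genes and, of the 5, only HSPD1. The 5 became 3 without moderation of the variances and between 1 and 6 with 1 library left out. The 0 with an adjusted p under 0.05 became 1 when the library set was blocked, and 0 to 2 with 1 library left out. The 10 without overlap became 2 of the 12 kept with a mean of at least 10. They became between 11 and 16 with 1 library left out, where fewer values make separation easier. The median log2 fold change of 0.02 became -0.026 with a mean of at least 10 and lay between -0.016 and 0.030 with 1 library left out, and it has no value for untransformed data. The 4 other chaperones with an unadjusted p under 0.05 became 0 with a mean of at least 10, a filter that none of them passed. They became 2 without moderation, 2 without the log and between 1 and 9 with 1 library left out. The 736 of all genes became 1623 without a filter, 121 with a mean of at least 10, 1174 when the library set was blocked and between 362 and 1381 with 1 library left out. Deviations of same-numbered libraries from the means of their arms had correlations of -0.17, -0.07 and 0.04, so the numbers were not taken as pairs, although exactly equal values tied replicates 1 and replicates 3 across the arms. With the replicate block 2 chaperone genes (HSPB8 and HSPA12A) and 543 of all genes had an unadjusted p under 0.05. Of 613 values for 40 single genes, 530 kept direction and side of the threshold, 45 lost and 4 gained an unadjusted p under 0.05, and 34 turned direction; the causes were not tested.

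When the library set was blocked, the log2 fold change turned to -0.11 for CRYAB, -0.028 for HSPB6, -0.0044 for HSPE1, 0.039 for DNAJC5, -0.039 for STUB1, -0.050 for BAG1, -0.0076 for AHSA1 and 0.027 for HSF1, and without the log DNAJB5 differed by 0.0037 units. With 1 library left out the direction turned for CRYAB (-0.12 to 0.23), HSPB6 (-0.058 to 0.15), HSPA2 (-0.033 to 0.037), HSPA13 (-0.073 to 0.020), HSP90AA1 (-0.10 to 1.30), HSPE1 (-0.016 to 0.30), DNAJA1 (-0.062 to 0.0092), DNAJB5 (-0.095 to 0.073), DNAJC5 (-0.46 to 0.024), STUB1 (-0.048 to 0.20), BAG1 (-0.049 to 0.14), AHSA1 (-0.0033 to 0.20), ST13 (-0.012 to 0.027) and HSF1 (-0.038 to 0.042). Depth is unknown, so counting error could not be separated from other spread.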
